A study of Mus musculus with 12 samples.

Results

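Small nucleolar RNA (snoRNA) families, counted from their short fragments, were described in the prefrontal cortex of mice given cocaine, methionine, both or neither. All features that the deposited tables type as snoRNA were taken as members, which gave 368 families of 3134 listed features. Each is an RNA family and not a single gene, so the copies and near copies of a gene share 1 count. By their names, 99 families were box C/D, 60 were box H/ACA, 14 were small Cajal body RNAs and 195 carried other names. The animals were adult male C57BL/6 mice trained for conditioned place preference, in which a chamber is paired with a drug. SS mice received saline and saline, CS mice cocaine and saline, MS mice L-methionine and saline, and MC mice L-methionine and cocaine. Methionine was injected under the skin at 1 g/kg, 2 times a day for 10 days, and the tissue was taken 2 hours after the test on day 10. Each group had 3 libraries, named here by the numbers in their labels (SS 12, 13 and 14, CS 8, 9 and 10, MS 3, 4 and 23, MC 16, 17 and 20), and each library was made from the pooled RNA of a pair of animals.

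snoRNAs are nuclear RNAs that guide chemical marks onto other RNAs. Box C/D snoRNAs guide ribose methylation and carry a C box and a D box near their ends, while box H/ACA snoRNAs guide pseudouridylation and end in an ACA box. A few, such as U3, U8 and U17 (SNORA73), are needed for cutting the ribosomal RNA precursor, and small Cajal body RNAs mark spliceosomal RNAs. Most mammalian snoRNAs are released from introns of host genes, and some of those expressed in brain come from imprinted clusters, of which SNORD115 is best known for its complementarity to the serotonin receptor transcript Htr2c. Fragments of both classes enter small RNA libraries, and some are processed as microRNAs (miRNAs).

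RNA of 18 to 30 nt was sequenced, so the counts are of fragments and say nothing of the whole snoRNAs. A library held 7.77 to 11.1 M counted reads (M, 1000000 reads), of which 2348 to 6075 were on snoRNA families (0.0270 to 0.0643%). The brain miRNA miR-124-3p had a median of 109602 counts per 1000000 counted reads (CPM) against 1.52 for the muscle miRNA miR-1a-3p. Medians of other brain markers were 49924 (miR-9-5p) and 21448 (miR-128-3p). Of the markers of other tissues, muscle miR-133a-3p had a median of 36.4, red blood cell miR-451a 2461 and choroid plexus miR-204-5p 1906. Liver miR-122-5p ranged from 9.04 to 2494 CPM over the libraries and leukocyte miR-223-3p from 1.29 to 166. The remaining markers had medians of 0.252 to 11.5. Clustering of the profiles of 125 miRNA precursor families, noted after the values were seen, put the libraries into 3 sets that no label explains. SS 12, CS 8 and CS 9 formed set A, CS 10, MC 16 and MC 17 formed set C, and the other 6 formed set B. CS has no library in set B, and MS has none outside it, so the set and the treatment can be told apart only in part. CS shares set A with SS 12 and set C with MC 16 and MC 17. MS shares set B with SS 13, SS 14 and MC 20, and no set with CS. In such pooled tissue, fewer cells of a type and less RNA per cell cannot be told apart.

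The sequences below are those of annotated mouse genes on which the results turn (GENCODE M21 transcripts, GRCm38). They were matched to the families by name for 103 of 368 families and 139 genes. The first is the most common of the SNORD115-type copies, and its capitals mark the 18 nt that are reverse complementary to Htr2c transcripts. In the box C/D genes the capitals mark the first TGATGA, the C box core, and the last CTGA, the D box, and in the box H/ACA genes they mark the ACA followed by 3 nt at the 3′ end.
SNORD115-type copy Gm24866, chr7:59393561-59393639, minus strand, in Snhg14: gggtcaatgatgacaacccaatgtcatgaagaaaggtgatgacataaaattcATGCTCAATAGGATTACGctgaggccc
Snord104, chr11:106500993-106501062, plus strand: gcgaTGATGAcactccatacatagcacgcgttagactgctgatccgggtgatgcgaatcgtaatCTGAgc
Snord66, chr16:20684239-20684313, plus strand, intron of Eif4g1: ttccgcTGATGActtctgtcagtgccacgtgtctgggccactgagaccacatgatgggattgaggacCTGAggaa
Snord57, chr2:130278016-130278087, plus strand, intron of Nop56: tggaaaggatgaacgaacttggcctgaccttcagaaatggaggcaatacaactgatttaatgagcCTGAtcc
Snord64, chr7:59978808-59978874, minus strand, overlapping an exon of Gm38393: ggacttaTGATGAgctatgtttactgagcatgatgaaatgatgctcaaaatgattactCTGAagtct
Snora35, chrX:146994381-146994508, plus strand, intron of Htr2c: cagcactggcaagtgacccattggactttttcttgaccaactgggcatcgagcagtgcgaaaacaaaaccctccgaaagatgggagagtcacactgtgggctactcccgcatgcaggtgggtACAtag
Snora57, chr19:8888538-8888685, minus strand: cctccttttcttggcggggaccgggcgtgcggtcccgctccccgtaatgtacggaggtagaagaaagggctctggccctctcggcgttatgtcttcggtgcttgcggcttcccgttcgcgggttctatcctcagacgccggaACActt
Snora73b, chr4:132352322-132352526, minus strand, intron of Snhg3: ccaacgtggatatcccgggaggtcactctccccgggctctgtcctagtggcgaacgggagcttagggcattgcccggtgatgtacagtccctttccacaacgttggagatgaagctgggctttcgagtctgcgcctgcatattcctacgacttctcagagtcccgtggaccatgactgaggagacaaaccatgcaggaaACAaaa
Snord57 holds no TGATGA in this transcript. On the transcript strand, TGATGA occurs in 72.1% and CTGA in 91.7% of the 458 annotated snoRNA transcripts of 60 to 100 nt, and 26.2% of the 902 transcripts of 120 to 150 nt end in ACA and 3 nt. A match to these letters is a description of the window only.

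The box C/D families held most of the signal. They took 34111 of 46218 snoRNA counts (73.8%), against 4792 (10.4%) for box H/ACA, 1021 (2.21%) for small Cajal body RNAs and 6294 (13.6%) for the families with other names. The 15 most abundant families held 60.9% of the counts. Of the 368 families, 81 had counts in all 12 libraries, 71 in a single library, and 126 reached at least 5 counts in at least 3 libraries and were tested. Tested were 64 of the box C/D, 22 of the box H/ACA, 5 of the small Cajal body and 35 of the other families.

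**Figure D1:**
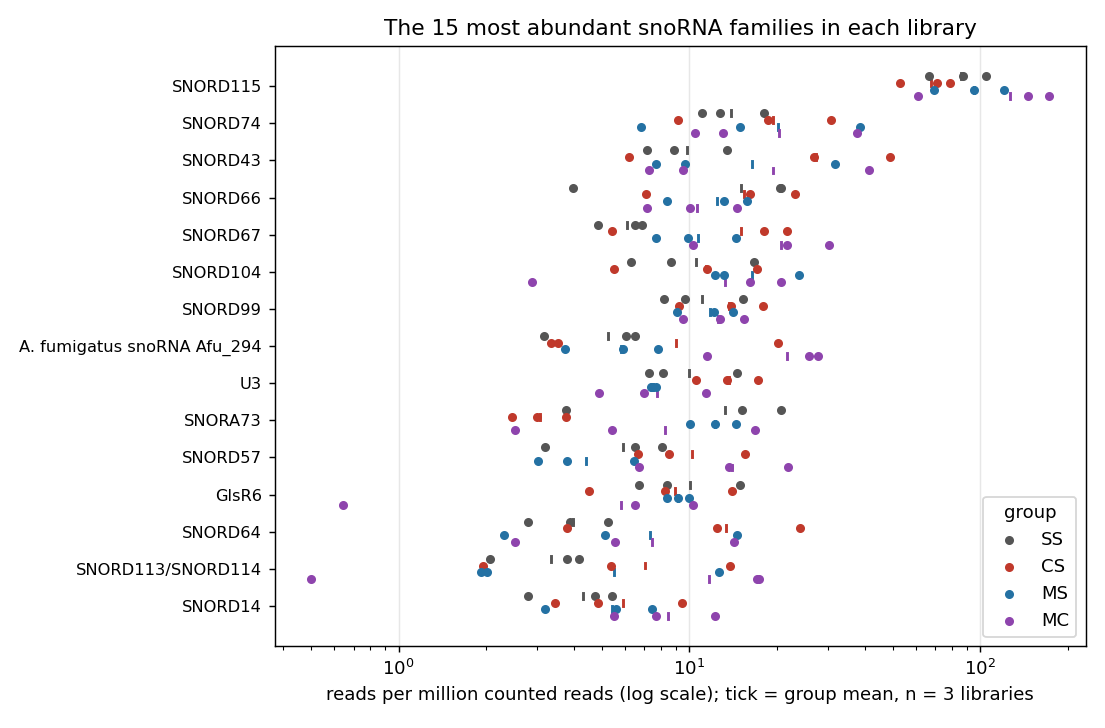
CPM (log axis) of the 15 snoRNA families with the highest mean, 1 point per library, coloured by group, with a tick at each group's mean (n = 3). SNORD115 lies between 52.8 and 172 CPM, above every other family in each library, while SNORA73 splits into a low and a high cluster.

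SNORD115 was the most abundant family by a wide margin, with a mean of 93.7 CPM against 18.5 for the next, SNORD74. The family had 66.4, 86.8 and 104 CPM for SS, 78.7, 52.8 and 70.8 for CS, 69.4, 121 and 95.4 for MS, and 172, 61.1 and 146 for MC. The MC libraries alone spanned 61.1 to 172 CPM, wider than the 4 group means (67.4 to 126), and all groups overlapped. SNORD115 made up 15.2 to 28.7% of the snoRNA counts of a library (26.0% ± 3.5 for SS, 17.2% ± 2.2 for CS, 23.3% ± 3.3 for MS, and 23.9% ± 4.5 for MC, SD, n = 3). Divided by the median length of the annotated genes, the level of SNORD115 was 119 CPM per 100 nt, followed by SNORD104 at 18.4, SNORD66 at 17.8, SNORD43 at 16.9 and SNORD99 at 16.6, among 104 families with a length. SNORD74 is not among these, since no gene was matched to it by name. The family sums many genes. Of the 208 annotated snoRNA genes within the host transcript Snhg14 (chr7:59307924-59975759, minus strand), 105 carry an 18 nt stretch complementary to Htr2c, in 32 distinct sequences. None of the other annotated snoRNA genes elsewhere does. The stretches were of 2 kinds, and 101 genes had the more common, which lies at chrX:147169689-147169706. The number of copies therefore enters the SNORD115 level, and single copies could not be separated.

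The other families of the imprinted Snrpn-Ube3a region were far lower. SNORD64, a box C/D family from the same strand, had 20 to 203 counts per library (mean 8.03 CPM), SNORD116, the cluster known from Prader-Willi syndrome, had 1 to 16, SNORD107 had 14 counts in 4 libraries and SNORD109A 3 in 3 libraries. SNORD113/SNORD114, the family of the Dlk1-Dio3 region, ranged most among the abundant families, from 4 counts in MC 17 to 190 in MC 20 (34.7-fold in CPM). SNORD64, SNORD116, SNORD43, SNORD110, SNORD30, SCARNA20, Z40 and U2-19, which are 8 of the 126 tested families, shared their 3 highest libraries, CS 8, MS 4 and MC 20, of 3 different groups. SNORD64 had 203, 146 and 155 counts there and at most 102 elsewhere. These 3 libraries also had high snoRNA shares of all counts (0.0520, 0.0490 and 0.0557%), below only that of MC 16 (0.0643%). How many of all features had the same 3 highest libraries was not counted.

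Of the next families, SNORD74, encoded in the growth-arrest host gene Gas5, had 18.0, 11.1 and 12.7 CPM for SS, 30.6, 18.6 and 9.17 for CS, 38.6, 14.9 and 6.83 for MS, and 13.0, 10.4 and 37.7 for MC. Its highest values came from MS 3 and MC 20, beside low libraries of the same groups. SNORD43, from an intron of the ribosomal protein gene Rpl3, had 7.17, 8.86 and 13.5 CPM for SS, 48.9, 6.20 and 26.8 for CS, 9.66, 31.8 and 7.70 for MS, and 9.53, 7.27 and 41.4 for MC. The SS libraries stayed low and each other group spanned the range. SNORD66, from an intron of the translation factor gene Eif4g1, had 20.7, 20.4 and 3.97 CPM for SS, 23.0, 16.2 and 7.09 for CS, 13.1, 8.39 and 15.8 for MS, and 14.5, 7.15 and 10.1 for MC. SNORD67, a guide for the U6 spliceosomal RNA from an intron of Ckap5, had 4.86, 6.87 and 6.50 CPM for SS, 21.6, 5.40 and 18.1 for CS, 7.66, 14.5 and 9.91 for MS, and 30.3, 21.6 and 10.3 for MC. All 3 MS and all 3 MC values of SNORD67 lay above the SS values. SNORD104 had 6.32, 8.67 and 16.6 CPM for SS, 17.1, 5.51 and 11.5 for CS, 23.9, 13.2 and 12.2 for MS, and 16.1, 2.88 and 20.6 for MC. SNORD99, encoded in Snhg12, was the steadiest of the 15, with a 2.20-fold range over the libraries (mean 12.3 CPM).

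Host gene mates did not share 1 level. From Gas5, SNORD74 had 2134 counts in all, SNORD75 535, SNORD44 374, SNORD81 189, SNORD47 119, SNORD78 87 and SNORD77 7. SNORD44 had 77 to 88 counts in the set A libraries and 7 to 28 in all others, and SNORD78 had 13 to 15 in set A and at most 12 elsewhere, whereas SNORD74, from the same transcript, did not set these libraries apart. From Snhg1, SNORD26 had 178 counts and SNORD30 125, while SNORD22 had 50, SNORD29 42, SNORD28 19, SNORD31 15, SNORD27 11 and SNORD25 10. All 10 SNORD25 counts came from CS 10, MC 16 and MC 17. From Rpl13a, Z195/SNORD33/SNORD32 had 96 and SNORD35 82.

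The families known for processing the ribosomal RNA precursor varied widely. U3 had 117 to 146 counts in the set A libraries and 38 to 91 in the others. SNORA73, whose RNAs are also called U17, had 26 to 32 counts in set A, 110 to 208 in set B and 20 to 42 in set C. U8 had 221 counts in MS 4 and 265 in MC 20 and at most 10 in every other library. SNORD14 (U14) had 28 to 95 counts, U13 had 2 to 40 and SNORD22 0 to 12. SNORA62/SNORA6 (23 counts in all) and SNORA63 (11), the E2 and E3 RNAs, were too low to test.

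After SNORA73 the box H/ACA families were sparse, down to SNORA71 with 1 count. SCARNA3 was the highest small Cajal body family (mean 5.01 CPM, 24 to 79 counts), followed by SCARNA6 with 110 counts in all, SCARNA16 with 84 and SCARNA13 with 81. SCARNA20 had 34 counts, of which 14 fell in CS 8, 11 in MC 20 and 6 in MS 4. The other 9 families had 38 counts or fewer each, among them SCARNA8 with 38, SCARNA14 with 27, SCARNA2 and SCARNA11 with 26, SCARNA7 with 23, SCARNA18 and SCARNA21 with 8, SCARNA4 with 3 and SCARNA1 with 2. SNORD93, known from studies of miRNA-like snoRNA fragments, had only 38 counts, and SNORA3/SNORA45 had 44. The lowest box C/D family, SNORD124, had 1 count.

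Families with other names took 13.6% of the counts. This class is mixed and holds names taken from other organisms beside older names of mammalian RNAs, such as U6-53/MBII-28, MBII-202 and U85. The 5 most abundant were A. fumigatus snoRNA Afu_294 (10.4 CPM), GlsR6 (8.48), snoR138 (3.31), snR60/Z15/Z230/Z193/J17 (3.13) and sR41 (1.93), and the lowest was snR84 with 1 count. Of the 1513 counts on the 58 families named snoR, R or Plant, 93.8% fell in CS 10, MC 16 and MC 17, which held 23.8% of all snoRNA counts. There they had 362, 721 and 336 counts, against 4 to 19 in the other libraries. snoR138 had 55, 203 and 55 counts in these 3 libraries and 0 in the other 9. The same libraries held 35702, 40303 and 37172 counts on miRNA precursor families with names in capitals (MIR), against 17 to 561 elsewhere, and a higher rRNA share (0.202 to 0.315% of counts, against 0.0419 to 0.136%). The largest of the MIR families over all libraries were MIR398 (43560 counts), MIR167_1 (27892), MIR159 (14764) and MIR168 (12532). The part of these 3 libraries in the results below was not tested beyond the values without them. A family name is a label from the family collection and does not show from which organism a fragment came.

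**Figure D2:**
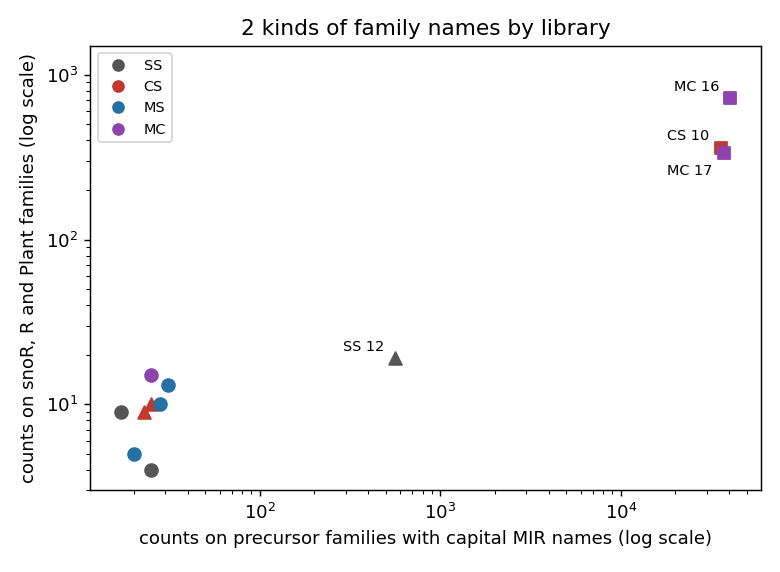
Counts per library on snoR, R and Plant families against counts on precursor families with capital MIR names (both axes log), coloured by group. Triangles are set A, circles set B and squares set C. CS 10, MC 16 and MC 17 stand at 336 or more and 35702 or more, and the next library, SS 12, at 19 and 561. Precursor families with MIR names also entered the clustering that drew the sets.

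Reads from snoRNA genes were also counted as miRNAs. Of the mature miRNAs listed, 18 lie inside annotated snoRNA genes, with 182802 counts in all against 46218 on the snoRNA families. Per library the miRNAs had 1.53 to 6.35 times the count of the families (median 4.12). The snoRNA type therefore leaves out the most abundant small RNAs of genes annotated as snoRNA. Most of these miRNA counts were of miR-1839-5p (78196) and miR-3068-5p (40309). Their genes are annotated as snoRNA but carry the miRNA names Mir1839 and Mir3068. The mature sequences of the 5 highest are given from RefSeq (GRCm38) with the seed, bases 2 to 8, in capitals.
miR-1839-5p, gene Mir1839 on chromosome 7: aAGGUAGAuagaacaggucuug
miR-3068-5p, gene Mir3068 on chromosome 12: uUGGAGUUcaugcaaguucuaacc
miR-1843a-5p, gene Scarna3b on chromosome 12: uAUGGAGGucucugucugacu
miR-1843b-5p, gene Scarna3a on chromosome 1: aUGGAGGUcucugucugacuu
miR-664-3p, gene Snora36b on chromosome 1: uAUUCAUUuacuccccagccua
The seeds of the 18 miRNAs were all different, but those of miR-1843a-5p and miR-1843b-5p differed only by a shift of 1 base. The means were 690 CPM for miR-1839-5p, 351 for miR-3068-5p, 258 for miR-1843a-5p, 122 for miR-1843b-5p and 79.2 for miR-664-3p. The first had 695, 746, 650 and 669 CPM in SS, CS, MS and MC, a narrower range than that of the SNORD115 group means. The place of the arms is shown for a box H/ACA gene and a small Cajal body gene, with both arms in capitals.
Snora36b, chr1:185242907-185243038, plus strand, intron of Rab3gap2: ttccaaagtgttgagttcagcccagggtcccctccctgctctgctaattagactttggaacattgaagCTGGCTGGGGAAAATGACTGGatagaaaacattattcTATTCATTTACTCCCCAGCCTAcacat
Scarna3a, chr1:159340283-159340422, plus strand, intron of Cop1: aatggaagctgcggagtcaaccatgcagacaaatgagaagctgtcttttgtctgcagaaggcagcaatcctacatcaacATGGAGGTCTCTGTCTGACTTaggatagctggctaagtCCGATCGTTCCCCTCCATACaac
The Snora36b arms miR-664-3p and miR-664-5p had means of 79.2 and 16.0 CPM, whereas the family SNORA36 had 11 counts in all, 0 to 3 per library. In the fit over all features, 16 of the 18 were tested and none was called in any comparison (edgeR), where 0% of all features were called. In MC against CS 1 of the 16 had an unadjusted p under 0.05, beside 6.68% of all features. A further 7 miRNAs predicted by the authors overlapped snoRNA genes, led by novel_mir4 over Snord104 (601 counts), novel_mir5 in Snora7a (396) and novel_mir13 in Gm26205 (286).

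The snoRNA shares depended on what they were divided by, and the balance of the classes differed among the groups. Of all counts, snoRNA families took 0.0328% ± 0.0032 of counts for SS, 0.0402% ± 0.0126 for CS, 0.0405% ± 0.0074 for MS, and 0.0509% ± 0.0163 for MC (SD, n = 3; exact permutation test of F over 369600 groupings, p = 0.311, adjusted p = 0.4667). The box C/D share ran from 0.0238% ± 0.0026 in SS to 0.0359% ± 0.0141 in MC (exact permutation p = 0.5362, adjusted 0.5362), and the box H/ACA share from 0.00328% ± 0.00100 in CS to 0.00495% ± 0.00052 in MS (exact permutation p = 0.35, adjusted 0.4667). None of these 3 passed the test. Divided instead by the counts on the RNA families of 5 types (snoRNA, snRNA, rRNA, tRNA and other families), all 3 did (adjusted p = 0.03377 each, exact permutation). MC moved from the highest to the lowest box C/D share and took the place of CS as the lowest in box H/ACA. SS, CS and MS kept their order among themselves. The box C/D share was then 3.25% ± 0.35 for SS, 4.37% ± 0.47 for CS, 4.72% ± 0.36 for MS and 3.20% ± 0.94 for MC, and the box H/ACA share 0.604% ± 0.190, 0.485% ± 0.067, 0.765% ± 0.062 and 0.356% ± 0.091. The number of box C/D counts per box H/ACA count was 6.91, 4.21 and 5.76 for SS, 9.32, 7.85 and 10.1 for CS, 6.14, 7.05 and 5.44 for MS, and 8.48, 9.09 and 9.25 for MC. All 6 libraries from cocaine-treated mice lay above all 6 others, which was noted after the values were seen and has no test of its own. The ratio was 5.63 ± 1.35 for SS, 9.09 ± 1.14 for CS, 6.21 ± 0.81 for MS, and 8.94 ± 0.40 for MC and differed among the 4 groups (F = 9.89, exact permutation p = 0.007208, adjusted over the 4 measures 0.02883). The call was lost without 1 box H/ACA family, while the cocaine groups kept the higher means. Without SNORA73 the adjusted p was 0.2525, and the ratio was 7.76 ± 0.80, 10.0 ± 1.1, 8.25 ± 1.26 and 11.3 ± 2.5 in the same order of groups, whereas without SNORD115 it remained at 0.02649. SNORA73 also followed the library sets. Within set A the ratio was 6.91 in SS 12 against 9.32 and 7.85 in CS 8 and CS 9, and within set B it was 4.21 to 7.05 in the SS and MS libraries against 9.25 in MC 20. Set C held cocaine libraries only. With groups permuted within the sets (540 groupings) the adjusted p was 0.6222, and without CS 10, MC 16 and MC 17 it was 0.227. Leaving out 1 library lost the call in 7 of 12 cases, with an adjusted p of 0.05351 without SS 13, 0.06078 without SS 14, 0.06104 without CS 8, 0.05195 without CS 10, 0.06597 without MS 3, 0.05792 without MC 17 and 0.0574 without MC 20.

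**Figure D3:**
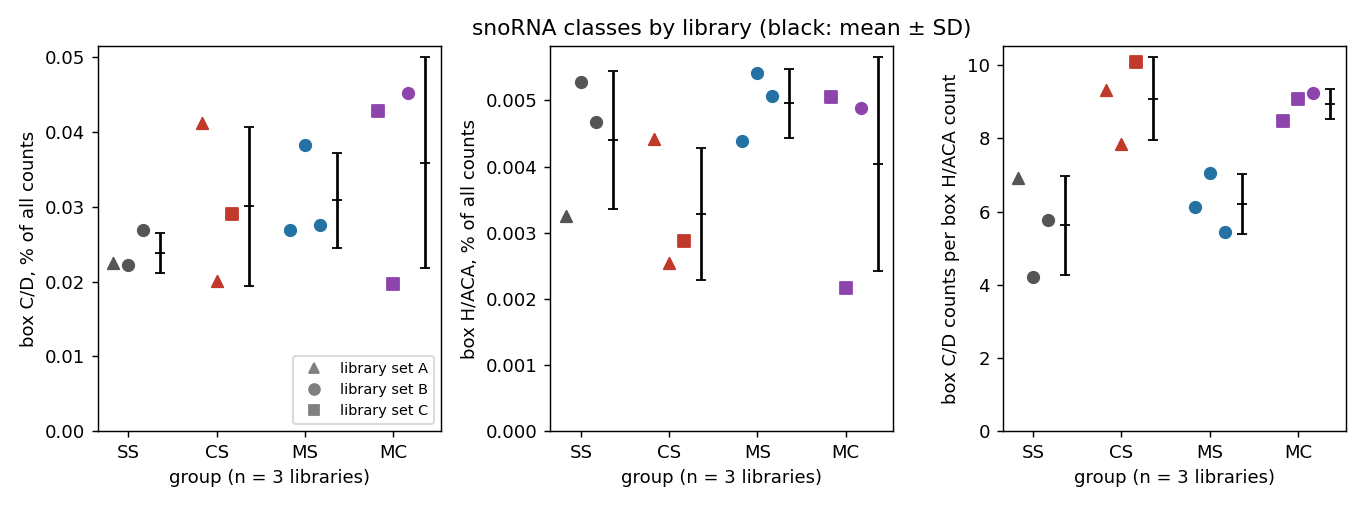
Share of all counts on box C/D families, share on box H/ACA families and the number of box C/D counts per box H/ACA count, 1 point per library by group, with the mean and SD in black (n = 3). In the third panel the cocaine groups CS and MC lie at 7.85 to 10.1 and the groups SS and MS at 4.21 to 7.05, and the point shapes show the library sets.

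Single families were compared between groups with edgeR's quasi-likelihood test over all 1393 tested features, adjusted by Benjamini-Hochberg. No snoRNA family was called at an adjusted p of 0.05 or less in any of the comparisons, and neither was any other feature (0 of 1393, 0%). At this depth the test had limited reach. In simulated data of CS against SS with a log2 change of 4, 11 of 20 changed snoRNA families were recovered (1310 features tested), and with a log2 change of 2 it was 0 of 15 (1306 features). The p-values measure the spread among these libraries.

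**Figure D4:**
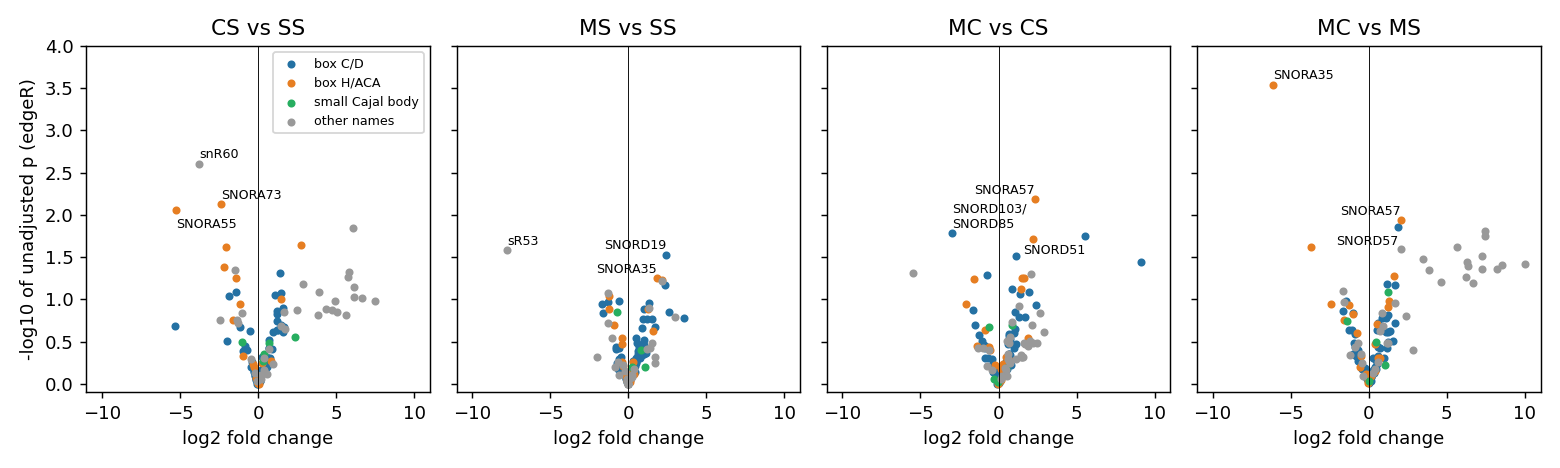
The log2 fold change of the 126 tested snoRNA families (x axis) against −log10 of the unadjusted p of edgeR's quasi-likelihood test (y axis) in 4 comparisons, coloured by class, with the 3 families of smallest p named. SNORA35 in MC against MS, at −6.11, has the smallest p of the panels, and the grey points on the right of CS against SS and MC against MS carry names of other kinds.

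Cocaine alone was assessed by CS against SS. Of 126 families 0 were called (0% of all features), 10 had an unadjusted p under 0.05 (7.94%, against 3.8% of all features), and DESeq2 called 1 family (0.794%, against 0.215% of all features). That family was snR60/Z15/Z230/Z193/J17, a group of box C/D-type guides, with 4, 36 and 122 counts in SS and 3, 3 and 4 in CS (log2 fold change −3.78 ± 0.96, SE; adjusted p = 0.9686 by edgeR and 0.0443 by DESeq2). SS 12 lay with the CS libraries, so the groups overlapped. SNORA73 had 31, 208 and 168 counts in SS and 32, 26 and 20 in CS, a log2 fold change of −2.35 ± 0.71 (adjusted p = 0.9686 by edgeR, range over the alternatives 0.1789 to 1). SNORA55 had 1, 40 and 7 counts in SS and 1, 0 and 0 in CS, an SS to CS ratio of 41.5 with a 95% counting interval of 7.10 to 1670 (adjusted p = 0.9686 by edgeR). SS 13 held 40 of the 48 SS counts, and the log2 fold change of −5.23 was −3.09 without it and −7.10 without CS 8. That of snR60/Z15/Z230/Z193/J17 was −2.60 without SS 14. All 3 families were higher in each of the 6 set B libraries (SS 13, SS 14, the 3 MS libraries and MC 20) than in any other library, and CS has no library in set B. Of these families, snR60/Z15/Z230/Z193/J17 had 35 to 122 counts in set B against 3 to 8 elsewhere, and SNORA55 had 3 to 55 against 0 to 2. With the library set as a covariate their log2 fold changes were −1.34, −0.69 and −2.80. Counting intervals and floors cover counting error only. The groups did not overlap for 7 families higher in CS (5.56%, against 8.97% of all features) and 6 lower (4.76%, against 2.01%). The median log2 fold change was 0.24 over the box C/D families (41 of 64 above 0) and −0.09 over the box H/ACA families (8 of 22 above 0), beside 0.13 over all features. Total counts in place of TMM factors moved the median over all features to 0.34 and that of box H/ACA to 0.13.

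Methionine alone was assessed by MS against SS. Of 126 families 0 were called (0% of all features), 2 had an unadjusted p under 0.05 (1.59%, against 6.03% of all features), and DESeq2 called 0 (1.79% of all features). sR53 had 66 counts in SS 12, 57 in CS 8 and 59 in CS 9, the set A libraries, and 0 to 2 in the other 9. It thus counted as at least 23.5-fold lower in MS, against a floor of 3 counts over the group, on the strength of SS 12 alone (adjusted p = 0.6639 by edgeR). SNORD19, from an intron of the nucleostemin gene Gnl3, had 1, 0 and 1 counts in SS and 5, 6 and 4 in MS, a ratio of 7.02 with a 95% counting interval of 1.63 to 63.2 (adjusted p = 0.6639 by edgeR, range over the alternatives 0.3137 to 0.9819). SNORA35, an intronic box H/ACA RNA of Htr2c, had 1, 16 and 8 counts in SS and 53, 34 and 22 in MS, a log2 fold change of 1.83 ± 0.85 (2.84 without SS 13, adjusted p = 0.6639 by edgeR). The MS libraries had the 3 highest SNORA35 counts of all 12. The groups did not overlap for 11 families higher in MS (8.73%, against 13.6% of all features) and 3 lower (2.38%, against 4.02%). Among the 11 were SNORD67, SNORD19 and SNORA35. Over the box C/D families the median log2 fold change was 0.40 (42 of 64 above 0), and over the box H/ACA families −0.05 (10 of 22), beside −0.04 over all features. With total counts in place of TMM factors the last 2 turned, to 0.14 and 0.13, and box H/ACA was 0.04 when the RNA families were fitted on their own.

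Methionine in cocaine-treated mice was assessed by MC against CS. Of 126 families 0 were called (0% of all features), 7 had an unadjusted p under 0.05 (5.56%, against 6.68% of all features), and DESeq2 called 0 (0.144% of all features). SNORA57, a box H/ACA guide, had 8, 4 and 5 counts in CS and 41, 9 and 23 in MC, a log2 fold change of 2.34 ± 0.69 (adjusted p = 0.6216 by edgeR, range over the alternatives 0.228 to 0.999), which was 1.20 without MC 16. SNORD103/SNORD85 had 15, 7 and 2 counts in CS and 0, 0 and 3 in MC, a CS to MC ratio of 8.41 with a 95% counting interval of 2.55 to 43.6 (adjusted p = 0.6216 by edgeR). SNORD51 had no count in CS and 5, 0 and 12 in MC, at least 5.39-fold higher in MC (adjusted p = 0.6216 by edgeR). SNORD115 had 667, 460 and 579 counts in CS and 1334, 487 and 1592 in MC, a log2 fold change of 1.09 ± 0.44 (adjusted p = 0.6216 by edgeR), with MC 17 among the CS values. U8 had no count in CS and 0, 0 and 265 in MC. The groups did not overlap for 5 families higher in MC (3.97%, against 3.3% of all features) and 3 lower (2.38%, against 2.94%). The median log2 fold changes of the box C/D and box H/ACA families were 0.21 and 0.17, beside 0.11 over all features. Both turned when the RNA families were fitted on their own (−0.24 and −0.36), and box H/ACA also with total counts (−0.03) and without CS 10, MC 16 and MC 17 (−0.02).

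Cocaine in methionine-treated mice was assessed by MC against MS. Of 126 families 0 were called (0% of all features), 17 had an unadjusted p under 0.05 (13.5%, against 11% of all features), and DESeq2 called 1 (0.794%, against 2.3% of all features). That family was SNORA35, with 53, 34 and 22 counts in MS and 0, 0 and 1 in MC, an MS to MC ratio of 92.6 with a 95% counting interval of 16.3 to 3690 (log2 fold change −6.11 ± 1.15, adjusted p = 0.403 by edgeR and 0.002148 by DESeq2). In CS it had 1, 3 and 1 counts, so that 5 of 6 cocaine libraries had at most 1 count, and SS 12, a saline library, also had 1. Within set B, MC 20 had 1 count against 16 and 8 in SS 13 and SS 14 and 22 to 53 in MS. With the library set as a covariate the log2 fold change was −5.02 (adjusted p = 0.915 by edgeR). The gene is intronic to Htr2c, whose choroid plexus expression is high. The 9 miRNAs listed from the same gene had summed counts of 163, 86 and 145 for SS, 311, 183 and 82 for CS, 614, 129 and 103 for MS, and 55, 166 and 169 for MC. In MS 3, 570 of the 614 were of miR-1298-5p, and miR-448-3p had 7, 10, 14 and 7 counts in SS, CS, MS and MC. Their part in the SNORA35 values was not tested.

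In the same comparison the 3 MS libraries gave 10, 8 and 7 counts of SNORA57 and the 3 MC libraries 41, 9 and 23 (log2 fold change 2.07 ± 0.68, 0.93 without MC 16, adjusted p = 0.4401 by edgeR). SNORD57, from an intron of the nucleolar protein gene Nop56, gave 33, 38 and 67 counts in the MS and 169, 109 and 73 in the MC libraries (1.87 ± 0.64, 1.12 without MC 16, adjusted p = 0.4401 by edgeR). Its counts were 109 to 169 in set C and 32 to 73 in every other library, and with the library set as a covariate the log2 fold change was 0.43. Of the 17 families with an unadjusted p under 0.05, 13 carried names of other kinds, such as snoR138, R16 and Plant small nucleolar RNA U3, whose counts lay almost wholly in set C. The groups did not overlap for 10 families higher in MC (7.94%, against 7.54% of all features) and 10 lower (7.94%, against 4.59%). The median log2 fold change was 0.21 over box C/D and −0.03 over box H/ACA families, beside 0.10 over all features. Fitted on their own, the RNA families gave −0.30 and −0.59, so that box C/D turned. Box H/ACA was 0.05 with TMM factors from mature miRNAs only and −0.48 without CS 10, MC 16 and MC 17. Over the 35 families with other names it was 2.07.

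**Figure D5:**
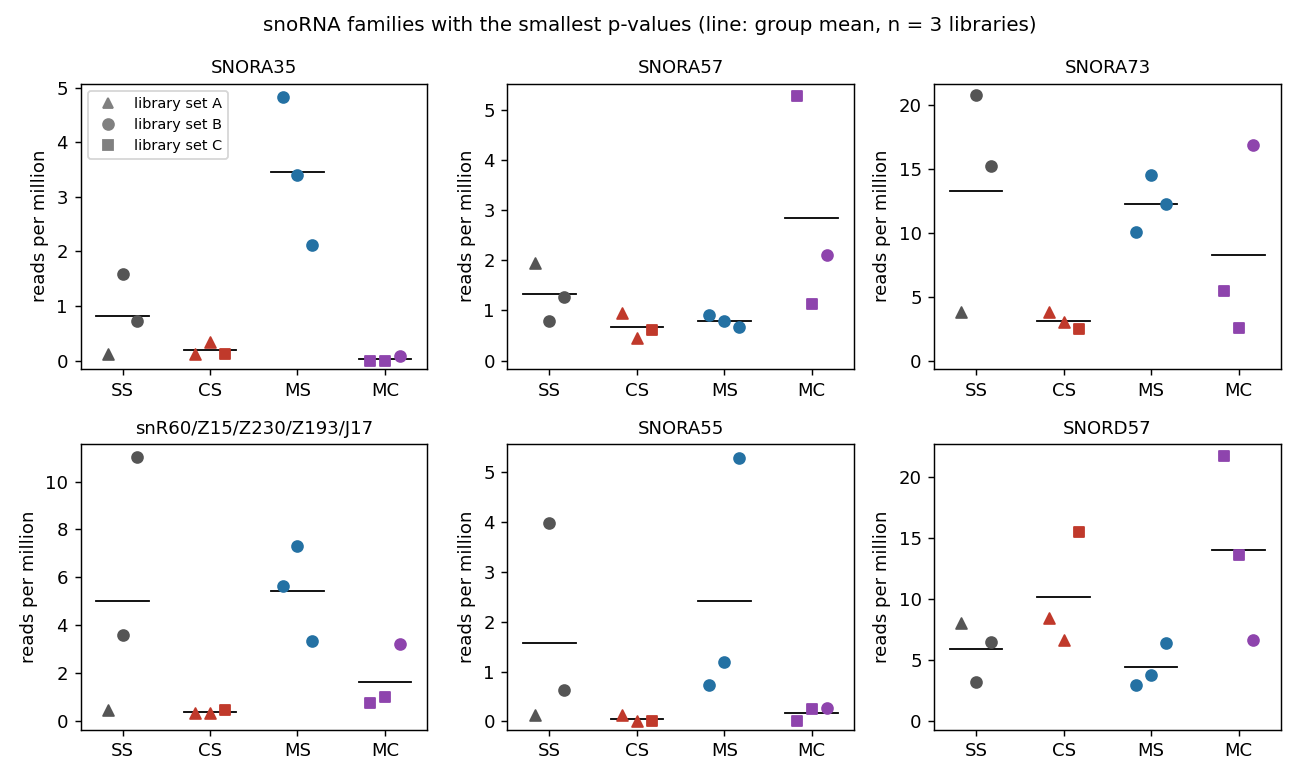
CPM of 6 families with the smallest p-values, 1 point per library by group, with a line at the group mean (n = 3) and point shapes for the library sets. SNORA35 lies at 2.12 to 4.83 CPM in MS and at or under 1.59 elsewhere, and SNORA73, snR60/Z15/Z230/Z193/J17 and SNORA55 are highest in the circles of set B.

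The interaction, the difference between the effect of methionine in cocaine-treated and in saline-treated mice, called 0 of 126 families (0% of all features), with 3 at an unadjusted p under 0.05 (2.38%, against 3.73% of all features) and 0 by DESeq2 (0.0718% of all features). These were SNORA57 (log2 scale 3.25 ± 0.96, SE), SNORA42/SNORA80 (3.41 ± 1.08) and SNORA35 (−3.90 ± 1.49), each with an adjusted p of 0.9217 by edgeR. Without MC 16 the value of SNORA57 was 2.11, and that of SNORA35 was −3.22 without CS 9, −4.92 without SS 13 and −5.73 without MC 20. SNORA42/SNORA80 had 7, 12 and 3 counts for SS, 1, 2 and 2 for CS, 4, 5 and 3 for MS, and 10, 5 and 7 for MC. Among all 4 groups edgeR called 0 families (0% of all features), with 12 at an unadjusted p under 0.05 (9.52%, against 8.54% of all features), and DESeq2 called 2, SNORA35 and snR60/Z15/Z230/Z193/J17 (1.59%, against 2.8% of all features).

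The lists by host gene and role gave no call. None of the tested families of the Snrpn-Ube3a, Dlk1-Dio3, Gas5, Snhg1, Rpl13a, precursor processing, small Cajal body and SNORA45 with SNORD93 lists, 28 in all, was called in any comparison by edgeR or DESeq2 (0% of all features by edgeR). An unadjusted p under 0.05 was reached in CS against SS by SNORA73 (1 of 28, beside 3.8% of all features), in MC against CS by SNORD115 and U8 (2 of 28, beside 6.68%), and in MS against SS and MC against MS by none (beside 6.03% and 11%). The 6 tested Gas5 families had median log2 fold changes of 0.11 in CS against SS, 0.00 in MS against SS, 0.17 in MC against CS and 0.25 in MC against MS. The 4 of Snhg1 had 0.01, −0.26, 0.33 and 0.47, and the 5 small Cajal body families 0.35, 0.31, −0.02 and 0.47. The 6 precursor processing families had −0.35, −0.10, 0.72 and 0.14.

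The library sets also differed in their snoRNA families. Set C lay above all other libraries for 20 of 126 snoRNA families (15.9%), against 67 of 1393 features (4.81%) and 1 of 746 mature miRNAs (0.134%). Of these, only SNORD57 and SNORD14 carry SNORD, SNORA or SCARNA names. The rest were among the 35 tested families with other names, such as the snoR and R families, so the excess lay in that class. Set A lay above all others for 7 families (5.56%, against 7.97% of all features), namely U3, SCARNA3, SNORD44, SNORD78, SNORD93, SNORD103/SNORD85 and sR53. Set B lay above all others for 6 (4.76%, against 1.79%), namely SNORA73, SNORA55, U8, U13, sR41 and snR60/Z15/Z230/Z193/J17. The sets were drawn from precursor families of the same libraries, which are among the 1393 features, so these counts are a description with no test.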

How the data were processed

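Small RNA libraries from mouse prefrontal cortex were analysed from the deposited tables of 12 libraries. The tables hold, per the file headers, raw counts per feature and TPM values, and the deposited TPM equal a library's count divided by its total and multiplied by 1000000 (largest deviation 0.005). Per the labels, the build was mm10 and Bowtie was used. The study's methods name AASRA for mapping to the genome and Bowtie for aligning the remaining reads to the piRNA collection piRBase. How reads were assigned to RNA families is not given in the sources used here. Counts were tested with edgeR 4.0.16 (quasi-likelihood F-test, TMM factors, at least 5 counts in at least 3 libraries, all 12 libraries in 1 fit, Benjamini-Hochberg over 1393 features, limit 0.05), and CPM are counts per 1000000 of the library total. Shares and the class ratio were tested by exact permutation of F, which has no direction, with 6.494e-05 as the smallest p the design allows. DESeq2 1.42.0, other scalings and filters, and leaving out libraries were alternatives. Library sets came from average linkage on correlations of precursor family profiles (log2 of CPM plus 0.5). The profiles included the tested MIR families, and the number of sets was fixed at 3. Library pairs differed beyond sampling noise in all 66 pairs (chi-square per degree of freedom of at least 212 over 382 miRNAs). The scripts were tested on simulated data with known changes. Families named are the 15 most abundant, the 3 of smallest p in each contrast, all members of the lists, the 5 most abundant with other names and the extremes of each class. The members and lists were chosen with earlier results of these data known. Families named for other reasons (those that set libraries apart, and SNORA36) were chosen after their values were seen.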

Additional observations from a re-analysis of the deposited data

Results flagged for a closer look

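Precursor families with names in capitals (MIR), such as MIR398 and MIR167_1, lie outside the snoRNA comparisons. They were flagged because their counts in 3 libraries stood above those of the saline control group. CS 10 had 35702 counts, MC 16 had 40303 and MC 17 had 37172, while the 3 SS libraries had 561, 25 and 17. These are the libraries that hold 93.8% of the counts on snoR, R and Plant families.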

How the results depend on the processing

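Of 129 counts of called families under an alternative, 125 stayed at 0. The others were DESeq2's 1 in CS against SS, 1 in MC against MS and 2 among 4 groups, and 1 (SNORA35, adjusted p = 0.02971 by edgeR) in MC against MS when the RNA families were fitted and adjusted on their own. Leaving out 1 library gave 0 in every comparison (edgeR). Of 411 values for single families, 403 kept their direction and side of the threshold and 3 passed the limit under the alternatives above. SNORD115, close to 0 in MS against SS (log2 fold change −0.06), became 0.149 with total counts in place of TMM factors and ranged from −0.23 to 0.095 when 1 library was left out (0.005 without SS 13, 0.047 without SS 14, 0.095 without MS 3), and in MC against MS it was −0.018 when the RNA families were fitted on their own. Taken per count on the RNA families of 5 types, the snoRNA, box C/D and box H/ACA shares each reached an adjusted p of 0.03377 (exact permutation), with total snoRNA shares of 4.48% ± 0.60 for SS, 5.88% ± 0.36 for CS, 6.21% ± 0.36 for MS and 4.61% ± 1.09 for MC. The cause was not tested. The class ratio lost its call (adjusted p, exact permutation) without SNORD115 and SNORA73 (0.2956), without SNORA73 only (0.2525), without CS 10, MC 16 and MC 17 (0.227) and with groups permuted within library sets (0.6222), the last 3 chosen after seeing the data, and ranged from 0.01506 to 0.06597 when 1 library was left out. No paired analysis was possible because the groups share no replicate number. sR53 in MS against SS gave no value without SS 12, since no count was left. Depth limits what can be tested: 3 counts are 0.271 to 0.386 CPM, and 126 of 368 families had enough counts to be tested.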
